A study of Mus musculus with 4 samples.

Results

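The Ink4 and Cip/Kip genes encode the proteins that inhibit cyclin-dependent kinases. Here they are described in skin cells, labelled as basal cells, that lost Ezh2, the methyltransferase of Polycomb repressive complex 2. The 6 genes Cdkn2a, Cdkn2b, Cdkn2c, Cdkn2d, Cdkn1a and Cdkn1b were chosen by name, with earlier results of these data known. All 8 probe sets annotated to 1 of these symbols alone were taken, dim ones included, out of 45037 non-control probe sets for 18193 genes with a symbol of their own. The cells were sorted by flow cytometry from the skin of mouse embryos at embryonic day 16, from a mixed strain of C57 and CD1. There were 4 Affymetrix arrays, 2 of wild-type (WT) cells and 2 of cells with a conditional Ezh2 knockout (Ezh2cKO), numbered replicate 1 and replicate 2 in each genotype. The labels name neither the Cre driver nor the deleted exons, and they do not say whether embryos were pooled or whether replicates were separate embryos. The p-values below therefore measure the spread between these arrays, which may be technical.

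The Ink4 proteins p16Ink4a, p15Ink4b, p18Ink4c and p19Ink4d bind Cdk4 and Cdk6 and keep D-type cyclins from activating them. The Cip/Kip proteins p21 and p27 act mainly on Cdk2 complexes. Both families hold the retinoblastoma protein in its E2F-binding state and so delay entry into S phase. Cdkn2a also encodes p19Arf in another reading frame, and p19Arf stabilises p53 by binding Mdm2. Polycomb complexes are known to silence the locus that carries Cdkn2a and Cdkn2b in many dividing cells. The comparison asks what the inhibitor genes did when Ezh2 was lost from these sorted cells.

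The promoters below are shown because Cdkn2b and Cdkn1b were the kept genes whose signals did not overlap between genotypes, and because Cdkn2a has separate starts for its 2 products. Each is the 250 bases before a transcription start, taken from RefSeq (build GRCm38.p6), written 5′ to 3′ along the gene's strand with every CpG in capitals. The upstream start of Cdkn2a is that of Arf by textbook knowledge of the gene, and the downstream start, 12427 bases further along, is that of Ink4a.
Cdkn2a upstream start (chr4:89294620-89294869, minus strand): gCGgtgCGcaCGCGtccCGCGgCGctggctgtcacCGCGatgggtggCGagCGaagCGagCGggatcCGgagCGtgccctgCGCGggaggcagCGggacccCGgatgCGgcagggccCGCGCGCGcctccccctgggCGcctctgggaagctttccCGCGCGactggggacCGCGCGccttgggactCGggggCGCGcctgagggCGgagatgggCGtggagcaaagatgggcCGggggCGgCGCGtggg
Cdkn2a downstream start (chr4:89282193-89282442, minus strand): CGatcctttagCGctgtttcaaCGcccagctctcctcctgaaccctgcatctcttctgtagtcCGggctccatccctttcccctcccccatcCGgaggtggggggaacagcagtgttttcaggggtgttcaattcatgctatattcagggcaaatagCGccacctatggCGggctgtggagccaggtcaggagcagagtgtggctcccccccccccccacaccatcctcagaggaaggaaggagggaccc
Cdkn2b (chr4:89311033-89311282, minus strand): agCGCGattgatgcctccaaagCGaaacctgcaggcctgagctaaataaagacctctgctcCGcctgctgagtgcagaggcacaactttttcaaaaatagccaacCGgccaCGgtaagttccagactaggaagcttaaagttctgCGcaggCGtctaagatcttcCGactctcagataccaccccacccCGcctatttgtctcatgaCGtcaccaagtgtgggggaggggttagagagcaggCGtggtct
Cdkn1b (chr6:134920151-134920400, plus strand): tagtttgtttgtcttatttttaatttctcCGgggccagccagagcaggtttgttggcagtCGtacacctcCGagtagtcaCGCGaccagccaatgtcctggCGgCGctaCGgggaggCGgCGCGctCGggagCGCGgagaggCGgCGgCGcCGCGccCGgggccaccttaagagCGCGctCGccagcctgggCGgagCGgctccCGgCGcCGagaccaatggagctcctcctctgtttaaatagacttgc
The window of the upstream Cdkn2a start held 40 CpGs, more than 98.7% of the 32851 windows of this length in the RefSeq table, whose median was 6. By contrast the downstream start had 7. Cdkn2b held 12 (more than 66.5% of windows) and Cdkn1b held 28 (more than 92.4%). The other 5 windows of these genes, 2 each for Cdkn2c and Cdkn1a and 1 for Cdkn2d, held between 2 and 29 CpGs. CpG-dense promoters are, as background, the usual sites of Polycomb binding in mammals. No binding or methylation was measured here.

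Ezh2, the targeted gene, had a signal of 3336 and 3603 in the WT samples, against 661 and 1308 in the Ezh2cKO samples. The groups did not overlap, and the log2 difference was -1.88 (SE 0.34, limma adjusted p 0.999979, unadjusted 0.00193). Whether this probe set lies in the deleted part of the gene is not known here, and in RNA from many cells, fewer cells with a transcript and less of it per cell cannot be told apart. The 4 arrays also differed in other ways. In all, 2217 kept probe sets were at least 2-fold lower in both arrays numbered 1 than in both numbered 2 and 71 were higher, while 20 were 2-fold apart between genotypes. The median signal of all non-control probe sets also differed by number. It was 91.6 in WT and 87.4 in Ezh2cKO on the arrays numbered 1, and 136.9 and 148.1 on those numbered 2. The part of this shift in the 2217 was not tested. Because of this, the differences of the inhibitor genes, and of some other genes and lists, are also given within replicate 1 and within replicate 2, from 1 array per genotype. Signals of Xist, the RNA that silences 1 X chromosome in female cells, were 86.9 in Ezh2cKO replicate 1 and between 8669 and 11333 on the other arrays. All 6 markers of basal keratinocytes were kept by the intensity filter, and their summed signal ran from 58382 to 66809. Among them the groups did not overlap for Krt14, a keratin of basal cells, which was higher in Ezh2cKO by log2 0.12, or for Itga6, an integrin of basal cells, which was lower by log2 -0.54 (11908 and 10639 in WT, 6327 and 9411 in Ezh2cKO), both named after their values were seen. Over all kept genes, 8.52% were separated upwards in this way and 8.39% downwards. Markers of differentiated keratinocytes summed to 35044 and 29717 on WT replicates 1 and 2, and to 39592 and 34842 on Ezh2cKO replicates 1 and 2. The sums overlapped between genotypes, but the Ezh2cKO sum was the higher one within each number. Krt1 and Krt10 made up most of each sum. Of the 5 genes, 4 were higher within both numbers (background 25.2%). The list median was log2 1.43 within replicate 1 and 0.32 within replicate 2. Singly, 3 of the 5 did not overlap, all with the higher signals in Ezh2cKO. They were Ivl, Lor and Flg, named after their values were seen. Flg had 23.79 and 29.45 in WT and 169.2 and 183.8 in Ezh2cKO, and only its Ezh2cKO signals brought it past the filter. The 5 endothelial markers, all kept, summed to 2453 in Ezh2cKO replicate 1 and to between 5294 and 6912 elsewhere. Dermal fibroblast markers, 6 of 6 kept, summed to between 45792 and 57278, and were lowest in Ezh2cKO replicate 1. The fibroblast and differentiated keratinocyte lists thus gave strong summed signals on all 4 arrays. The share of basal cells in the RNA was not measured. The median log2 difference was -0.22 for melanocyte markers, -0.18 for Schwann cell, -0.17 for erythroid, 0.05 for immune cell, 0.13 for skeletal muscle and 0.32 for Merkel cell markers, with between 1 and 4 genes kept per list. In the same order, the medians within replicate 1 were -0.47, -0.36, -0.42, -0.125, 0.16 and 0.51. Within replicate 2 they were 0.03, 0.005, 0.075, 0.23, 0.05 and 0.14. The only gene of these 6 lists whose groups did not overlap was the melanocyte marker Pmel, lower in Ezh2cKO and named after its values were seen.

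Across the inhibitor genes, Cdkn2b was the only kept gene whose signals were both higher in Ezh2cKO than any in WT, by log2 1.04, and Cdkn1b was the only kept gene whose signals were both lower than any in WT, by log2 -0.25. Cdkn2c, Cdkn2d and Cdkn1a overlapped between genotypes by their brightest probe sets, and Cdkn2a lay at the low end of the array. Of the 8 probe sets, 6 had a mean signal of at least 73.2, the level that keeps the upper 60% of probe sets, and these covered 5 genes. None of the 6 passed an adjusted p of 0.05 in limma, whose background was 0% of 27022 kept probe sets in either direction. Each of the 6 had an adjusted p of 0.999979. At an unadjusted p under 0.05, only the Cdkn2b probe set passed, where 94 probe sets (0.348%) were higher and 16 (0.0592%) were lower over the whole array. With 2 arrays against 2, an exact permutation test cannot give a two-sided p under 0.333. Counted with dim probe sets, 3 of 8 were higher in both Ezh2cKO arrays (background 9.11% of all probe sets), 1 was lower (background 8.23%) and 4 overlapped. By gene, 1 of the 5 kept genes was higher (background 8.52%) and 1 lower (background 8.39%), and with Cdkn2a added 2 of 6 were higher (background 9.9%) and 1 lower (background 9.14%). At least 1.5-fold apart in every pair of an Ezh2cKO and a WT array, only Cdkn2b was higher (background 0.346%) and no inhibitor gene was lower (background 0.0866%). With so few genes these shares only describe the list.

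**Figure D1:**
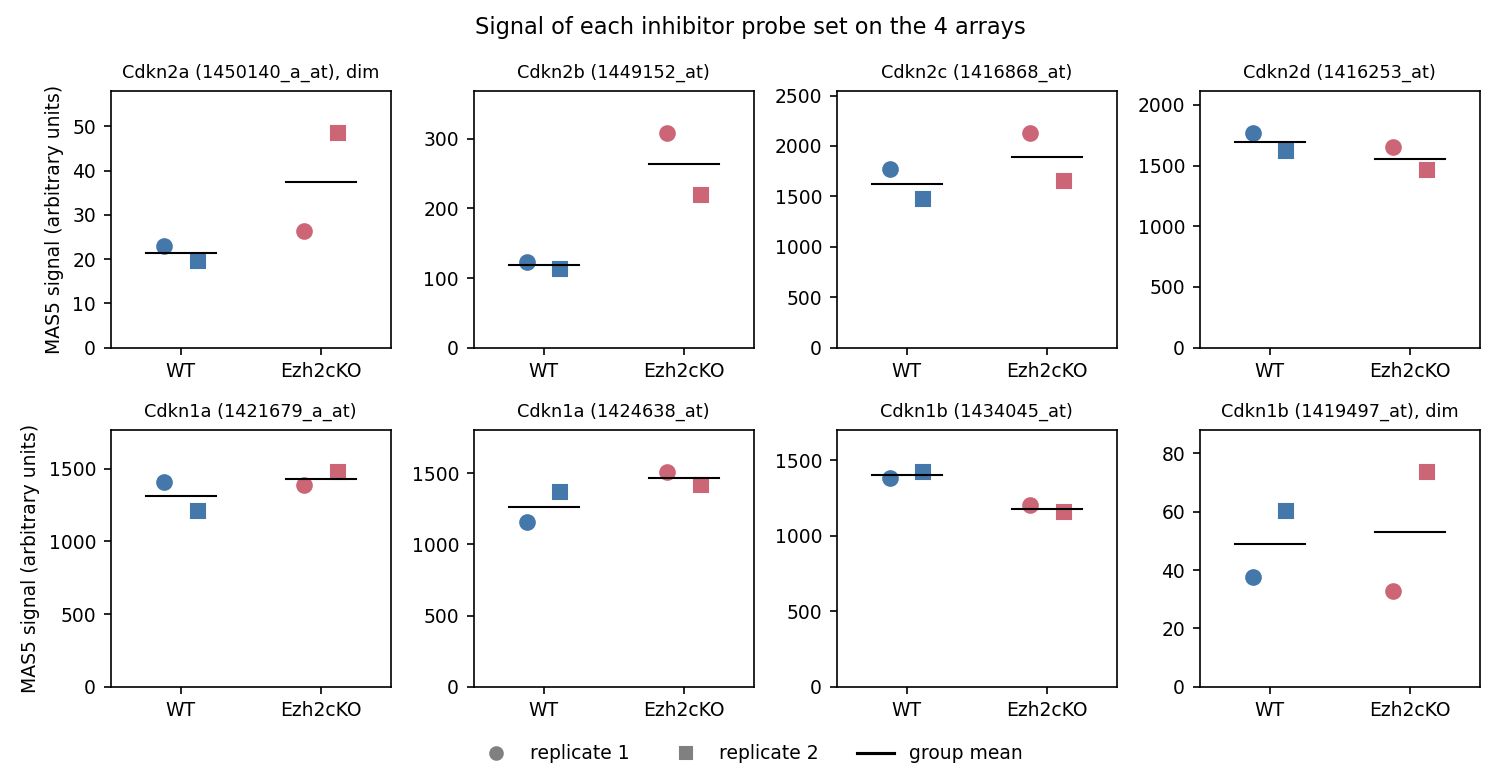
MAS5 signal (vertical axis, arbitrary units, starting at 0) of each of the 8 inhibitor probe sets on the WT and Ezh2cKO arrays, with circles for replicate 1, squares for replicate 2 and lines for group means of 2 arrays. Cdkn2b lies at 112 and 124 in WT and at 219 and 308 in Ezh2cKO, Cdkn1b is lower in both Ezh2cKO arrays by its bright probe set, and the panels marked dim lie below a mean signal of 73.2.

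Cdkn2b encodes p15Ink4b, the inhibitor of Cdk4 and Cdk6 that TGF-beta induces in epithelial cells. Its only probe set (1449152_at) had signals of 124 and 112 on WT replicates 1 and 2, and of 308 and 219 on Ezh2cKO replicates 1 and 2. Every Ezh2cKO value was above every WT value, and the WT values alone already lay above the filter level. The mean was 118 ± 8.1 in WT and 263 ± 62.9 in Ezh2cKO (SD, n = 2 each), and the WT arrays were closer to each other than the Ezh2cKO arrays were. The ratio of Ezh2cKO to WT signal was 2.49 within replicate 1 and 1.95 within replicate 2. On the log2(signal + 16) scale, which understates changes of dim probe sets, the difference was 1.04 (SE 0.34, 95% confidence interval 0.19 to 1.89), with an unadjusted limma p of 0.0245. The spread between replicates was smaller: WT replicate 2 differed from WT replicate 1 by log2 -0.12 and Ezh2cKO replicate 2 from Ezh2cKO replicate 1 by -0.46. This difference was larger in size than that of 99.5% of the 12703 kept genes, and 48 genes (0.378%), Cdkn2b included, were at least as far up. Only 19 of the 12703 (0.15%), again including Cdkn2b, were at least as far up within both replicate numbers. Both thresholds were taken from the value of Cdkn2b itself, so these counts are descriptions. Of the 5 differentiated keratinocyte markers, 3 were higher in both Ezh2cKO arrays and the others overlapped. The part of these markers in the Cdkn2b difference was not tested. The endothelial markers and Xist were low in Ezh2cKO replicate 1, the array with the highest Cdkn2b signal, and their part was not tested either.

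**Figure D2:**
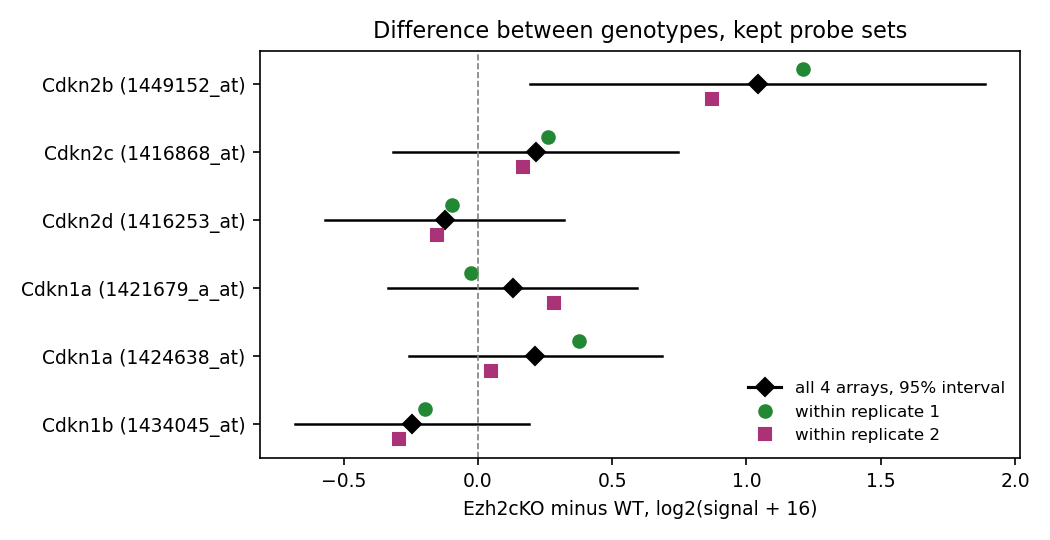
Difference between Ezh2cKO and WT in log2(signal + 16) (horizontal axis) for the 6 kept inhibitor probe sets, with diamonds and lines for the 4-array estimate and its 95% interval from limma, circles for replicate 1 and squares for replicate 2. Only the Cdkn2b interval, from 0.19 to 1.89, lies wholly on 1 side of 0, before any adjustment for the number of probe sets.

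Cdkn2a, the neighbour of Cdkn2b, had the probe set with the lowest mean signal of the 8 (1450140_a_at), with a mean signal above that of only 22.7% of all probe sets. Its signals were 23.1 and 19.5 in WT and 26.3 and 48.4 in Ezh2cKO. The groups did not overlap, but Ezh2cKO replicate 1 exceeded the higher WT array only slightly. The signal ratio was 1.14 within replicate 1 and 2.48 within replicate 2. With the pseudocount of 16 the log2 difference was 0.49; with 1 it was 0.72 and with 64 it was 0.24. In a fit without the filter its SE was 0.42 and its unadjusted limma p 0.29. No detection calls were used, so whether any of the 4 values was above background is not known. The annotation does not give the exons that the probes cover, so p16Ink4a and p19Arf cannot be told apart in this value.

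In the RefSeq gene order the protein-coding genes next to this pair are Mtap, which lies beside Cdkn2a and encodes an enzyme of methionine salvage, and Dmrta1, a transcription factor gene beside Cdkn2b. Mtap had signals of 1689 and 1698 in WT and 2295 and 1718 in Ezh2cKO. Both Ezh2cKO values were above both WT values, but within replicate 2 the ratio was only 1.01, against 1.36 within replicate 1. Dmrta1 was dim, with signals of 13.7 and 8.72 in WT and 3.05 and 15.4 in Ezh2cKO, which overlapped. Set beside these, the Cdkn2b ratios were 2.49 within replicate 1 and 1.95 within replicate 2, and the Cdkn2a ratios rest on signals too dim to compare.

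Cdkn2c encodes p18Ink4c and Cdkn2d encodes p19Ink4d, the remaining Ink4 inhibitors. For Cdkn2c (1416868_at) the signals were 1772 and 1473 in WT and 2125 and 1657 in Ezh2cKO. The lower Ezh2cKO array lay between the 2 WT arrays, so the groups overlapped. Even so, the Ezh2cKO signal was the higher one within each number, by log2 0.26 and 0.17, with an overall difference of 0.21 (SE 0.21, 95% confidence interval -0.32 to 0.74). For Cdkn2d (1416253_at) the signals were 1766 and 1624 in WT and 1651 and 1461 in Ezh2cKO. It overlapped as well and was lower within both numbers, by log2 -0.10 and -0.15 (overall -0.12, SE 0.18, interval -0.57 to 0.32). Neither difference exceeded the spread between the Ezh2cKO replicates, of which replicate 2 differed from replicate 1 by -0.36 for Cdkn2c and -0.175 for Cdkn2d. Over the array, 25.2% of kept genes were higher within both numbers and 25.6% were lower within both.

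Cdkn1a encodes p21, which p53 induces after DNA damage. Its 2 probe sets were both bright and did not give the same picture. The brighter (1421679_a_at) had 1412 and 1210 in WT and 1388 and 1476 in Ezh2cKO, which overlapped. The other (1424638_at) had 1157 and 1371 in WT and 1506 and 1420 in Ezh2cKO, where both Ezh2cKO values were the higher ones. With the log2 values of both probe sets averaged, the Ezh2cKO arrays lay above the WT arrays, by 0.17. Taken singly, their log2 differences were 0.13 (SE 0.19) and 0.21 (SE 0.19). Within replicate 1 the probe sets gave -0.02 and 0.38, and within replicate 2 they gave 0.28 and 0.05. Both 95% intervals covered 0, from -0.34 to 0.59 and from -0.26 to 0.68.

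Cdkn1b encodes p27, an inhibitor of Cdk2 complexes that restrains growth in quiescent cells. Its bright probe set (1434045_at) had 1385 and 1421 in WT and 1206 and 1157 in Ezh2cKO. Both Ezh2cKO values were below both WT values, and replicates lay close together. The mean was 1403 ± 25.7 in WT and 1181 ± 34 in Ezh2cKO (SD, n = 2 each), with signal ratios of 0.87 within replicate 1 and 0.814 within replicate 2. The log2 difference of -0.25 (SE 0.17, 95% confidence interval -0.68 to 0.19) was larger in size than that of 81.5% of kept genes. In all, 231 of 12703 (1.82%), Cdkn1b included, were at least as far down within both numbers. These thresholds were taken from the values of Cdkn1b itself, so the shares are descriptions. Scaling the arrays to a common median, in place of the authors' scaling, kept the sign but made the groups overlap. The other Cdkn1b probe set (1419497_at) was dim, at 37.5 and 60.4 in WT and 32.8 and 73.5 in Ezh2cKO. It overlapped and had a log2 difference of 0.05.

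**Figure D3:**
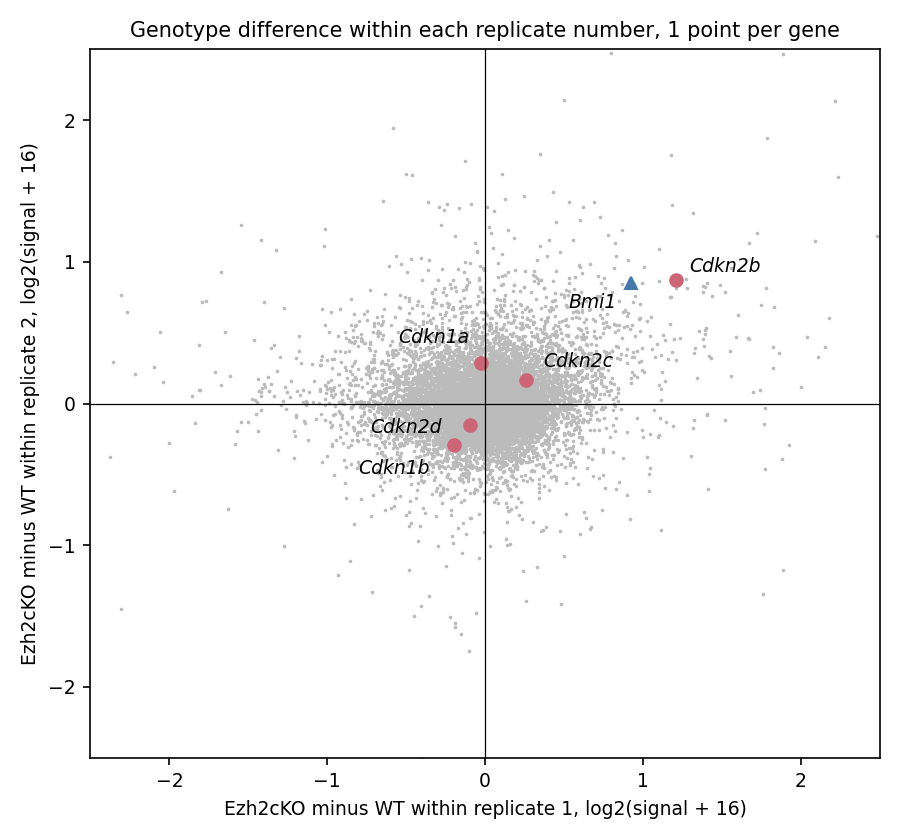
Difference between Ezh2cKO and WT in log2(signal + 16) within replicate 1 (horizontal axis) and within replicate 2 (vertical axis), with 1 grey point for each kept gene by its brightest probe set, circles for the 5 kept inhibitor genes and a triangle for Bmi1. Cdkn2b (1.21 and 0.87) and Bmi1 (0.93 and 0.85) lie at the upper right edge of the cloud and the other inhibitors lie inside it, with 14 of 12703 genes outside the axes.

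To see which genes followed each inhibitor over the 4 arrays, log2(signal + 16) profiles were centred on each gene's mean and compared by Euclidean distance with 12702 other genes. The gene nearest to Cdkn2b was Bmi1, the Polycomb repressive complex 1 subunit that is best known for silencing the Cdkn2a locus, at a distance of 0.21. Bmi1 had signals of 1899 and 1633 in WT and 3622 and 2963 in Ezh2cKO, and like Cdkn2b was highest in Ezh2cKO replicate 1. Next came Mab21l2 at 0.22, with 56.8 and 63.3 in WT and 188 and 126 in Ezh2cKO. Both WT signals of Mab21l2 lay under the filter level of 73.2, so it was kept only through its Ezh2cKO signals. The tight junction gene Cldn7 followed at 0.23, with 243 and 188 in WT and 472 and 350 in Ezh2cKO. No gene lay within 0.2 of Cdkn2b, whereas between 670 and 2142 genes lay within 0.2 of each of the other 4. Nearest to Cdkn2c were Slc35f6, Pus7l and Fndc10, all at 0.02 to 0.03. For Cdkn2d they were Fadd, an adaptor of death receptors, Mvb12b and the Hsp70 cochaperone St13, at about 0.02. Those of Cdkn1a were Zfp444, Irak1bp1 and Pcsk6, at 0.02 to 0.03, and those of Cdkn1b were Hdhd5, Fam126b and Dtnb, at 0.03 to 0.04. The distance was not scaled to the size of a gene's changes, so any gene near Cdkn2b has a genotype difference of similar size. These likenesses rest on 4 arrays and, for the other 4 inhibitors, on small differences, and they describe the profiles only.

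The pathway around the inhibitors was read from 10 lists of 123 distinct genes, of which 115 were kept. None passed limma's adjusted threshold. By non-overlap of the groups, 13 were higher in Ezh2cKO and 8 lower, and the background was 8.52% and 8.39% of kept genes. Among the regulators of the Cdkn2a and Cdkn2b locus, 3 of 22 kept genes were higher and 2 lower, Ezh2 included, with a median log2 difference of -0.02 against -0.004 over all kept genes. After Ezh2 the largest separated differences were those of Bmi1 (log2 0.89, SE 0.19, unadjusted limma p 0.00415) and Hmga2. Of the 2 kept Bmi1 probe sets, the other differed by 1.02. Hmga2, a chromatin protein known to lower Ink4a and Arf in stem cells, had 1219 and 1897 in WT and 2446 and 2235 in Ezh2cKO, a log2 difference of 0.62 (SE 0.25). This did not exceed the spread between the WT replicates, of which replicate 2 differed from replicate 1 by 0.63. The 3 kept probe sets lay between 0.59 and 0.78, with 0.99 within replicate 1 and 0.24 within replicate 2 for the brightest.

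The list of cyclins and their kinases holds the G1 targets of the inhibitors and also the S-phase and mitotic genes Ccna2, Ccnb2 and Cdk1. In it, 2 of 11 kept genes were separated upwards in Ezh2cKO (background 8.52%) and none downwards (background 8.39%), with a list median of 0.001. The higher ones were D-type cyclins, the partners of Cdk4 and Cdk6. Ccnd1 had 4229 and 3696 in WT and 5574 and 4694 in Ezh2cKO (log2 0.37, SE 0.17), with 1.32 and 1.27 as ratios within the numbers. The gene's 3 kept probe sets lay between log2 0.06 and 0.37. Ccnd2 was higher by only 0.16 (SE 0.12), and its 7 kept probe sets lay between -0.007 and 0.25. The pocket protein and E2F list had 2 of 13 higher (background 8.52%) and 2 lower (background 8.39%), with a median of -0.007. Rb1, the retinoblastoma protein itself, had 734 and 785 in WT and 872 and 917 in Ezh2cKO (log2 0.23, SE 0.19). E2f4, a mostly repressive E2F, differed by 0.19, and E2f8, another repressor, by -0.21, although the kept probe sets of E2f8 ranged from -0.21 to 0.44.

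Replication and proliferation genes, which lie downstream of E2F, had 1 of 20 members separated upwards and 1 downwards, close to the background of 8.52% and 8.39%, with a median of -0.02. It was 0.05 within replicate 1 and -0.12 within replicate 2. Mcm3 and Mcm2, subunits of the replicative helicase, were those separated, at log2 -0.14 (SE 0.13) and 0.06 (SE 0.15). The kept probe sets of Mcm3 ranged from -0.32 to 0.11.

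**Figure D4:**
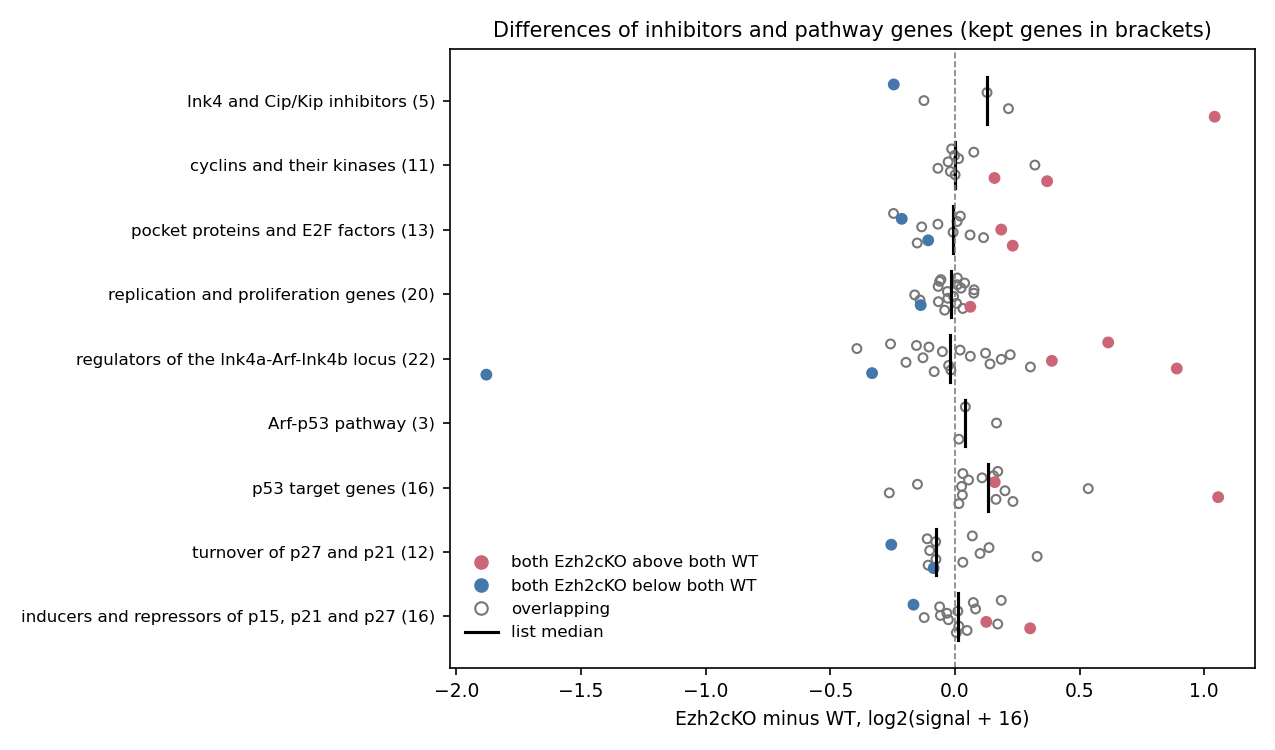
Difference between Ezh2cKO and WT in log2(signal + 16) (horizontal axis) for the kept genes of the inhibitor list and of each pathway list with at least 3 kept genes, 1 point per gene by its brightest probe set and a black bar for the list median. Filled points are genes whose groups did not overlap, the point at -1.88 is Ezh2, and every list median lies between -0.08 and 0.13.

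In the Arf and p53 pathway, Mdm2, the ligase that degrades p53, differed by log2 0.02 (SE 0.21), its relative Mdm4 by 0.17 (SE 0.43) and Npm1, a nucleolar partner of Arf, by 0.04 (SE 0.13). Their groups all overlapped by these brightest probe sets. The 3 kept probe sets of Mdm4 ranged from -0.48 to 0.17. Trp53 was not analysed here. Of 16 kept p53 target genes, 2 were separated upwards (background 8.52%) and none downwards (background 8.39%). The list medians were 0.10 within replicate 1 and 0.13 within replicate 2. Pmaip1, the proapoptotic gene Noxa, had 550 and 624 in WT and 898 and 1694 in Ezh2cKO. Every Ezh2cKO value was above every WT value, and the ratios were 1.63 within replicate 1 and 2.72 within replicate 2 (log2 1.06, SE 0.34, unadjusted limma p 0.0228). Zmat3 differed by only 0.16 (SE 0.20).

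Genes that control the levels of p15, p21 and p27 had list medians near 0. Of 12 ubiquitin ligase and turnover genes none was separated upwards (background 8.52%) and 2 were separated downwards (background 8.39%), with a median of -0.08. These were Cul4a, a ligase scaffold (log2 -0.26, SE 0.19), and Skp2, the ligase subunit that targets p27 (log2 -0.08, SE 0.18), whose 6 kept probe sets ranged from -0.19 to 0.34. Of 16 transcriptional inducers and repressors 2 were higher (background 8.52%) and 1 lower (background 8.39%), with a median of 0.01. Tgfb3, a TGF-beta ligand, had 694 and 712 in WT and 916 and 826 in Ezh2cKO (log2 0.30, SE 0.20). Smad2, a transducer of that signal, differed by 0.13 (SE 0.19), and its 2 kept probe sets lay between 0.13 and 0.34. Foxo4, a factor that can induce p27, differed by -0.17 (SE 0.21), with a signal of 707 on both arrays numbered 2. The remaining inhibitor genes on the array overlapped as well: Cdkn1c, which encodes p57 of the Cip/Kip family, had 2647 and 3256 in WT and 2652 and 3551 in Ezh2cKO, and Cdkn3, a phosphatase of Cdk2, had 888 and 632 in WT and 1166 and 558 in Ezh2cKO.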

How the data were processed

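Biotin-labelled RNA of 4 sorted samples was measured on Affymetrix mouse arrays, per the labels. The authors deposited signal intensities made with MAS5 (version not given), per the submitters' processing notes. These are linear values, scaled so that each array's 2% trimmed mean was 500.0. More than 1 chip name appears in the design text. The 45101 probe sets were named through the platform annotation, with symbols updated from RefSeq (GRCm38.p6), and 64 controls were left out. Values were transformed as log2(signal + 16), and probe sets in the upper 60% by mean signal were kept. All 27022 kept probe sets were fitted with limma 3.58.1 in R 4.3.3 (intensity trend, no block) and adjusted by Benjamini-Hochberg. The fit was tested on simulated data with independent noise and no difference between replicate numbers. That test therefore does not show how the fit performs on these arrays. A gene is represented by its brightest kept probe set. Levels are not compared between probe sets, and MAS5 is noisy for dim ones.

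The inhibitor genes and the 10 pathway and 10 marker lists were chosen with earlier results of these data known. Named genes are the inhibitors, Ezh2, Xist, up to 3 genes per pathway list with the largest difference among those whose groups did not overlap, all genes of lists of at most 4, and the 3 nearest profiles of each kept inhibitor. Alternatives were pseudocounts of 1 and 64, no filter, the upper 40%, quantile and median scaling, the replicate number as a block, no trend, averaged probe sets, an adjusted p of 0.1, a 1.5-fold separation rule and leaving out each array.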

Additional observations from a re-analysis of the deposited data

How the results depend on the processing

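Only 4 arrays limit the precision, and dim probe sets have no known background. Cdkn2b kept its direction and stayed short of the adjusted threshold under every alternative that kept it (log2 0.83 to 1.13 over pseudocounts and scalings, 0.81 to 1.27 with 1 array left out); the upper 40% filter dropped it. No inhibitor gene changed direction under any alternative run. The replicate numbers are not stated to pair samples (correlation of same-numbered deviations 0.766); with the replicate block 6 probe sets were called in place of 0, Ezh2 among them (log2 -1.88, adjusted p 0.0440), and no inhibitor gene, with 0.357 for Cdkn2b. With 1 array left out 0 to 52 probe sets were called, with 52 when WT replicate 2 was out, 27 when Ezh2cKO replicate 2 was out, 2 when WT replicate 1 was out and 0 when Ezh2cKO replicate 1 was out. Ezh2 passed in all but the last of these fits and ranged from log2 -2.36 to -1.40. In such fits the lone array is assumed to vary like the others.

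Inhibitor genes higher in both Ezh2cKO arrays numbered 1, against 2 without the filter (Cdkn2a joins), 2 with averaged probe sets (Cdkn1a joins), 0 in the upper 40% and 1 to 3 with 1 array left out (3 with WT replicate 1 out, 2 with either Ezh2cKO array out). Those lower numbered 1, against 2 after quantile normalization (Cdkn2d joins), 0 after scaling to a common median, 0 at 1.5-fold and 1 to 2 with 1 array left out (2 with WT replicate 2 or Ezh2cKO replicate 1 out); fewer arrays overlap less by construction. List medians moved too. For cyclins and their kinases the median was 0.017 with quantile normalization, -0.022 with median scaling, 0.043 with averaged probe sets and -0.106 to 0.169 with 1 array left out. In the main setting it was 0.107 within replicate 1 and -0.058 within replicate 2. Pocket proteins and E2F factors had -0.029 with median scaling, 0.022 with averaged probe sets and -0.069 to 0.076 with 1 array left out. For p53 targets it was 0.055 to 0.157 with 1 array left out. Turnover genes had -0.003 with averaged probe sets and -0.141 to -0.010 with 1 array left out. Inducers and repressors had 0.062 with averaged probe sets and -0.030 to 0.124 with 1 array left out. With 1 array left out, medians also changed sign for replication genes (-0.173 to 0.131), the Arf and p53 pathway (-0.125 to 0.158), the other inhibitor genes (-0.071 to 0.241) and the locus regulators (-0.040 to 0.059). Single genes that changed sign were E2f8 (0.112) and Mdm4 (-0.117) with averaged probe sets, Mdm2 with median scaling (-0.006) and, with 1 array left out, Mdm2 (-0.125 to 0.158), Mdm4 (-0.389 to 0.723), Npm1 (-0.035 to 0.119), Cdkn1c (-0.146 to 0.273), Cdkn3 (-0.415 to 0.628) and Xist (-6.54 to 0.246). The cause was not tested.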
